A study of Danio rerio with 12 samples.

Results

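Fibulins, elastin and stanniocalcins are secreted proteins, and their transcripts were followed through blood niche cells of the zebrafish kidney. The genes listed were efemp1, efemp2a, efemp2b, fbln1, fbln5, elna, elnb, stc1, stc2a and stc2b. They were chosen by their levels in ZKS cells: the rule picked 1 copy of EFEMP2 and 1 copy of STC2 because they were high there, so values that set ZKS cells against other cells are given as a description without a test. Of the 10 genes, 9 could be matched through the gene name table, which gave 10 identifiers among the 32047 in the deposited tables. The gene elna had no match and was not analysed here. The table names both copies of EFEMP2, STC1 and STC2 by 1 shared symbol and does not say which copy is a or b, so those copies are given by identifier.

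Fibulins are glycoproteins built from repeats related to epidermal growth factor that sit in elastic fibres and basement membranes. In mice, the fibulins EFEMP2 and FBLN5 bring tropoelastin, the soluble elastin precursor, together with microfibrils and with the lysyl oxidases that cross-link it, and elastic fibres form poorly without either protein. Stanniocalcins were first known from the corpuscles of Stannius, glands that lie at the kidney of bony fish and release a hormone that lowers calcium uptake. In mammals STC1 and STC2 also bind and inhibit the pappalysins, proteases that cut binding proteins of insulin-like growth factors and so release the growth factor.

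Messenger RNA was measured in 12 libraries by Quartz-seq, which amplifies polyadenylated RNA of small samples with oligo-dT priming and PCR. The cells are described as sorted from the kidney of adult wild-type fish, but 4 of the libraries were made after co-culture. Niche libraries came from ZKS cells, from pericytes, named for pdgfrb in their titles, and from sinusoids, named for high Ac-LDL, an acetylated lipoprotein that sinusoidal endothelium takes up. Further libraries came from cells positive for both gata2a and runx1 (gata2a+ runx1+, or DP), after co-culture with ZKS cells together with IWR-1-endo, an inhibitor of Wnt signalling, and the cytokine Thpo; after co-culture with ZKS cells alone; or uncultured. Each of the 6 groups had 2 libraries. Both agents were added on top of the ZKS co-culture, so the treated and the co-cultured DP cells share that co-culture. ZKS cells served in the co-cultures, and a cultured stromal line of the zebrafish kidney bears that name. It is not stated whether the ZKS cells profiled here had been in culture, so they may not be freshly sorted cells. The part of culture in the differences of ZKS cells from pericytes and sinusoids was not tested. No label says that replicates came from separate fish, so the errors measure the spread between these libraries, which may be technical.

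The niche libraries held between 6984491 and 16242074 reads, and 15545 to 20626 identifiers were above 0. DP libraries had 7329 to 9712 identifiers above 0, and how deep they were sequenced is unknown. Of the niche markers, PDGFRB was highest in pericyte libraries and cdh5 in sinusoid libraries. PDGFRB was at 30.99 and 31.58 CPM (reads per library scaled to a common total) in ZKS libraries, 125.46 and 123.85 CPM in pericyte libraries and 1.20 and 3.14 CPM in sinusoid libraries. The endothelial gene cdh5 was at 0 in both ZKS libraries, 4.42 and 2.29 CPM in pericyte libraries and 795.23 and 684.95 CPM in sinusoid libraries. GATA2 (ENSDARG00000059327) was not confined to DP cells, which were at 45.3 and 177.5 CPM when uncultured. It was at 0 in both ZKS libraries, 140.44 and 146.9 CPM in pericyte libraries and 50.33 and 45.99 CPM in sinusoid libraries. In the 4 treated and co-cultured DP libraries RUNX1 was listed at 0 in 3 and at 0.1 CPM in the other, against 6.3 and 6.1 CPM in uncultured DP libraries. Pericyte libraries also carried macrophage marker genes (sums of 3224 and 4362 CPM over 13 genes, against 0.87 and 1.1 CPM in ZKS libraries and 474.6 and 1015 CPM in sinusoid libraries).

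ZKS cells had 2 stand-out transcripts among these genes, EFEMP2 and STC2, each in 1 copy. EFEMP2 (ENSDARG00000094324), the fibulin that recruits lysyl oxidase to elastin in mice, was at 27028.46 and 23544.89 CPM in ZKS libraries, against 32.11 and 17.90 CPM in pericyte libraries and 2.92 and 0.31 CPM in sinusoid libraries. These levels made up 2.70% and 2.35% of all reads of the ZKS libraries, 250307 and 232640 reads. The 3 groups did not overlap. The mean in pericytes was 0.0989% and the mean in sinusoids 0.00639% of the mean in ZKS cells, so that ZKS cells were 1010-fold above pericytes and 15700-fold above sinusoids by mean CPM. The sinusoid level rests on 39 and 5 reads, and the fold was 8660 with sinusoids replicate 1 alone and 81600 with replicate 2 alone, so this fold is known only roughly. TMM scaling gives each library a factor that offsets the effect of differences in composition on its scale. On the log2(CPM + 1) scale after TMM scaling, the differences were 9.62 ± 0.49 from pericytes and 13.24 ± 0.49 from sinusoids (SE from limma, n = 2 each). With bulk RNA of a sort, fewer cells of a type and less RNA per cell cannot be told apart.

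The other EFEMP2 copy (ENSDARG00000020811) was far more even. It was at 34.45 and 29.86 CPM in ZKS libraries, 5.28 and 9.16 CPM in pericyte libraries and 10.25 and 7.08 CPM in sinusoid libraries. The ZKS libraries were the highest and did not overlap the others, while pericytes and sinusoids overlapped. The log2 difference of ZKS cells was 1.71 ± 0.43 from pericytes and 1.52 ± 0.43 from sinusoids, ratios of mean CPM of 4.45 and 3.71. The authors' counting could have divided reads of similar copies between identifiers, so levels of copies that share a symbol are uncertain.

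**Figure D1:**
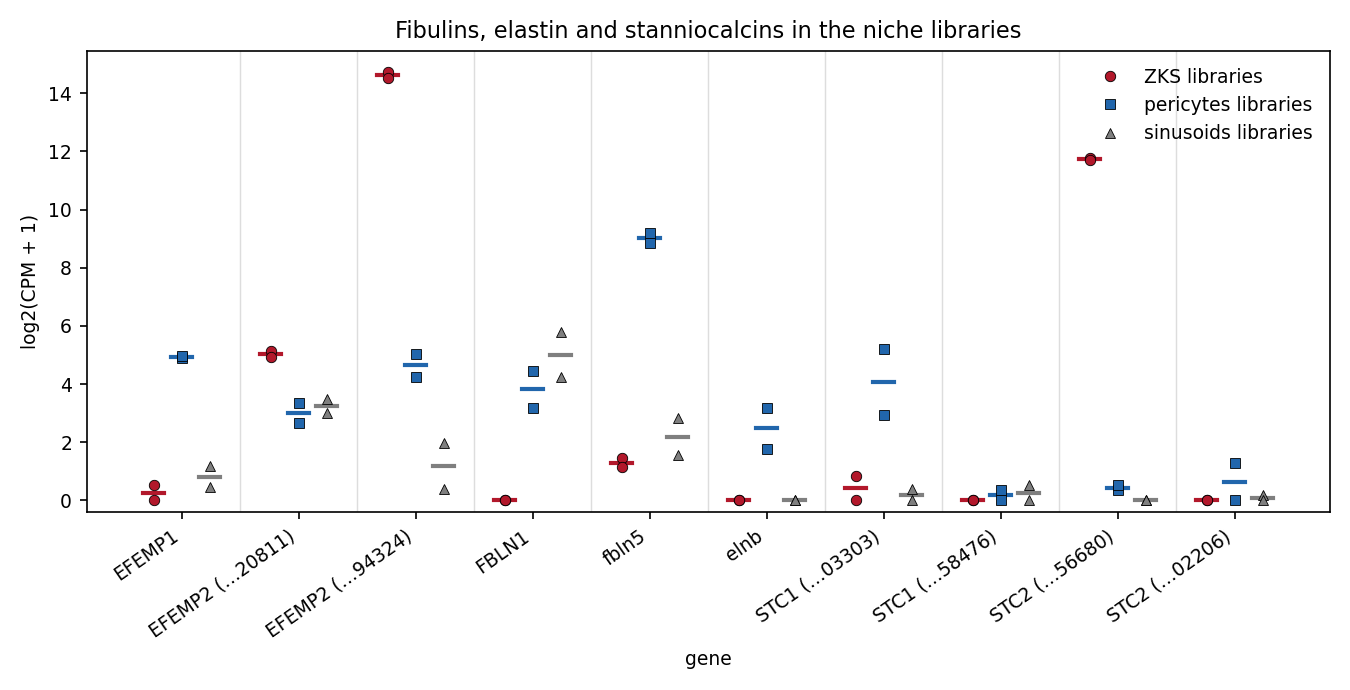
Level of each gene in the 6 niche libraries as log2(CPM + 1), with points for single libraries (ZKS, pericytes, sinusoids, from left to right within each gene) and bars for the mean of the 2 libraries. EFEMP2 (ENSDARG00000094324) and STC2 (ENSDARG00000056680) stand out in ZKS cells, while EFEMP1, fbln5, elnb and STC1 (ENSDARG00000003303) are highest in pericytes and FBLN1 is at 0 in ZKS cells.

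The remaining fibulins were at or near 0 in ZKS cells. The gene fbln5 (ENSDARG00000039273), which tethers cells to elastin and helps to assemble the fibre, was at 1.73 and 1.21 CPM in ZKS libraries, 587.47 and 456.01 CPM in pericyte libraries and 6.06 and 1.97 CPM in sinusoid libraries. Its mean in ZKS cells was 355-fold lower than in pericytes (log2 difference -7.99 ± 0.43) and differed by -1.07 ± 0.43 from sinusoids. Of the niche groups, pericytes alone held a high fbln5 level. EFEMP1 (ENSDARG00000059121), a fibulin of elastic tissues and of the retina, was at 0.43 and 0.00 CPM in ZKS libraries, 28.83 and 30.50 CPM in pericyte libraries and 1.27 and 0.37 CPM in sinusoid libraries. The log2 differences of ZKS cells were -4.86 ± 0.51 from pericytes and -0.60 ± 0.51 from sinusoids, whose libraries overlapped those of ZKS cells.

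FBLN1 (ENSDARG00000103311), a fibulin of basement membranes and of elastic fibres, had no read in either ZKS library. It was at 20.98 and 8.02 CPM in pericyte libraries and at 54.14 and 17.92 CPM in sinusoid libraries. A count of 0 allows up to 3 reads per library, or 0.3239 and 0.3036 CPM in the ZKS libraries, which covers counting error only. Against the higher of these floors ZKS cells were at least 44.8-fold lower than pericytes and at least 111-fold lower than sinusoids. FBLN1 was thus the 1 fibulin here whose mean was highest in sinusoids, although the sinusoid and pericyte libraries overlapped.

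Of the elastins only elnb was measured, and among the niche libraries it was detected in pericytes alone, at a low level. The gene elnb (ENSDARG00000069017), an elastin, was at 0 in both ZKS and both sinusoid libraries. In pericyte libraries it was at 2.43 and 8.16 CPM, from 17 and 57 reads. ZKS cells were at least 16.3-fold lower than pericytes. No fold is given between ZKS cells and sinusoids because both were at 0.

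STC2 (ENSDARG00000056680), a stanniocalcin that inhibits pappalysins in mammals, was at 3459.72 and 3355.02 CPM in ZKS libraries, 0.29 and 0.43 CPM in pericyte libraries and 0 CPM in both sinusoid libraries. The pericyte values came from 2 and 3 reads, the ZKS values from 32040 and 33150 reads. The mean CPM of ZKS cells was 9530-fold above the pooled level of pericytes. The exact 95% counting interval of this fold, 4090 to 29400, comes from the 5 pericyte reads and leaves out the spread between libraries. ZKS cells were at least 15200-fold higher than sinusoids. The log2 differences were 11.03 ± 0.36 from pericytes and 11.51 ± 0.36 from sinusoids. The other STC2 copy (ENSDARG00000102206) had no read in ZKS libraries and was at 0 and 1.43 CPM in pericyte libraries and 0.15 and 0 CPM in sinusoid libraries, so the high level belonged to 1 copy.

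STC1, the stanniocalcin closest to the calcium-lowering hormone of fish, was low in ZKS cells. The copy ENSDARG00000003303 was at 0.00 and 0.81 CPM in ZKS libraries, 6.71 and 35.65 CPM in pericyte libraries and 0.30 and 0.00 CPM in sinusoid libraries. The log2 difference of ZKS cells was -3.82 ± 0.80 from pericytes and 0.22 ± 0.80 from sinusoids. The second copy (ENSDARG00000058476) was at 0 in both ZKS libraries, 0.29 and 0 CPM in pericyte libraries and 0.45 and 0 CPM in sinusoid libraries. It and the second STC2 copy did not reach the filter of at least 1 CPM in at least 2 libraries.

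By their sums, mural markers were highest in pericytes, as were fbln5, EFEMP1, elnb and STC1 (ENSDARG00000003303), but not FBLN1. Mural markers, of pericytes and smooth muscle, summed to 156.8 and 194.6 CPM in ZKS libraries, 2797 and 2088 CPM in pericyte libraries and 581.7 and 979.7 CPM in sinusoid libraries, with 9 and 10, 12 and 12, and 10 and 10 of 12 genes above 0. The smooth muscle actin gene acta2 was at 0.22 and 0.20 CPM in ZKS libraries, 1052.48 and 524.88 CPM in pericyte libraries and 13.54 and 7.02 CPM in sinusoid libraries. Stromal markers were mostly highest in pericytes. Of 9 genes, limma called 1 higher and 7 lower in ZKS cells than in pericytes, beside 15.2% and 22.0% of all genes. The higher one was PRRX1 (ENSDARG00000033971), at 1076.9 and 943.35 CPM in ZKS libraries against 98.05 and 68.29 CPM in pericyte libraries. The other PRRX1 copy (ENSDARG00000042027) went the other way, at 0.65 and 0.20 CPM in ZKS libraries against 19.41 and 22.34 CPM in pericyte libraries. Against sinusoids 5 of the 9 stromal markers were called higher and 1 lower in ZKS cells, beside 13.7% and 17.9% of all genes. Sums of the stromal markers were 1681 and 1492 CPM in ZKS libraries, 11500 and 11900 CPM in pericyte libraries and 25220 and 39690 CPM in sinusoid libraries, where CXCL12 (ENSDARG00000037116) alone held 25164.15 and 39651.30 CPM. The part of mural or stromal cells in the differences of the fibulins, elnb and STC1 was not tested.

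Pericytes were compared with sinusoids to ask how these genes differ between the mural and the endothelial side of the kidney vessels. The rule that chose the genes does not name this contrast, although they were chosen with earlier results of these data known. Pericytes had more fbln5, EFEMP1, EFEMP2 (ENSDARG00000094324), elnb and STC1 (ENSDARG00000003303) transcript. In limma 5 of the 8 tested identifiers were higher in pericytes and 0 were lower, and 3 did not pass, beside 14.4% of all 15916 genes called higher and 10.9% called lower. Of the 8, 4 reached the low-value filter only through the group where they were high: EFEMP1, elnb and STC1 (ENSDARG00000003303) through pericytes and STC2 (ENSDARG00000056680) through ZKS cells. For 3 of the 5 called genes a high pericyte level was thus the condition for being tested, so nothing is read from the count against the share of all genes, and it does not stand for all 10 identifiers.

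On the log2(CPM + 1) scale the difference of fbln5 was the largest of the 8, at 587.47 and 456.01 CPM in pericyte libraries against 6.06 and 1.97 CPM in sinusoid libraries. Its log2 change was 6.93 ± 0.43 (limma, adjusted p = 0.000232), a 130-fold ratio of mean CPM. By mean CPM STC1 (ENSDARG00000003303) was further apart, at 141-fold, and in edgeR on recovered reads the fitted log2 change of STC1 was above that of fbln5 too (7.36 against 7.25). The call of fbln5 held under every alternative, with log2 changes between 6.03 and 7.42. The highest log2 change of elnb over the alternatives, 8.958, was above the highest of STC1 (7.575) and of fbln5. EFEMP1 changed by 4.26 ± 0.51, 36.2-fold by mean CPM, and pericyte libraries stood clear of sinusoid libraries. It reached the filter only through pericytes, so its adjusted p is not given.

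EFEMP2 (ENSDARG00000094324) was higher in pericytes as well, although far below its ZKS level. Its log2 change was 3.62 ± 0.49 (limma, adjusted p = 0.00358), 15.5-fold by mean CPM, from 225 and 125 reads in pericytes against 39 and 5 reads in sinusoids. The edgeR quasi-likelihood test on recovered reads did not call it (adjusted p = 0.0678, the highest of its alternatives, whose lowest was 0.000291). The other copy (ENSDARG00000020811) differed by -0.19 ± 0.43 (limma, adjusted p = 0.777), less than the spread between replicates.

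STC1 (ENSDARG00000003303), at 6.71 and 35.65 CPM in pericyte libraries against 0.30 and 0.00 CPM in sinusoid libraries, changed by 4.03 ± 0.80. Its limma call was lost without sinusoids replicate 2, where the change was 3.90, and with all 12 libraries in one fit. STC1 reached the filter only through pericytes, so its adjusted p is not given. Without either pericyte library it no longer reached the filter, so its call was not tested there.

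The elastin gene elnb was likewise tested only through pericytes, both libraries of which it needs to reach the filter, so its adjusted p is not given. It was at least 23.6-fold higher in pericytes (log2 change 2.60 ± 0.53). Its call was lost without sinusoids replicate 2 and in edgeR.

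The other 3 identifiers did not differ past the threshold in this comparison. FBLN1 changed by -1.14 ± 0.63 (limma, adjusted p = 0.238), with pericyte libraries at 20.98 and 8.02 CPM overlapping sinusoid libraries at 54.14 and 17.92 CPM. STC2 (ENSDARG00000056680) changed by 0.48 ± 0.36 and rests on 5 pericyte reads in all. It reached the filter only through ZKS cells, so its adjusted p is not given. Its log2 change ran from 0.111 to 2.299 over the alternatives, and with a pseudocount of 0.1 it passed the threshold. Without pericytes replicate 1 or without pericytes replicate 2 the number of identifiers called was 3 in place of 5, since elnb and STC1 no longer reached the filter, and it was also 3 without sinusoids replicate 2.

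**Figure D2:**
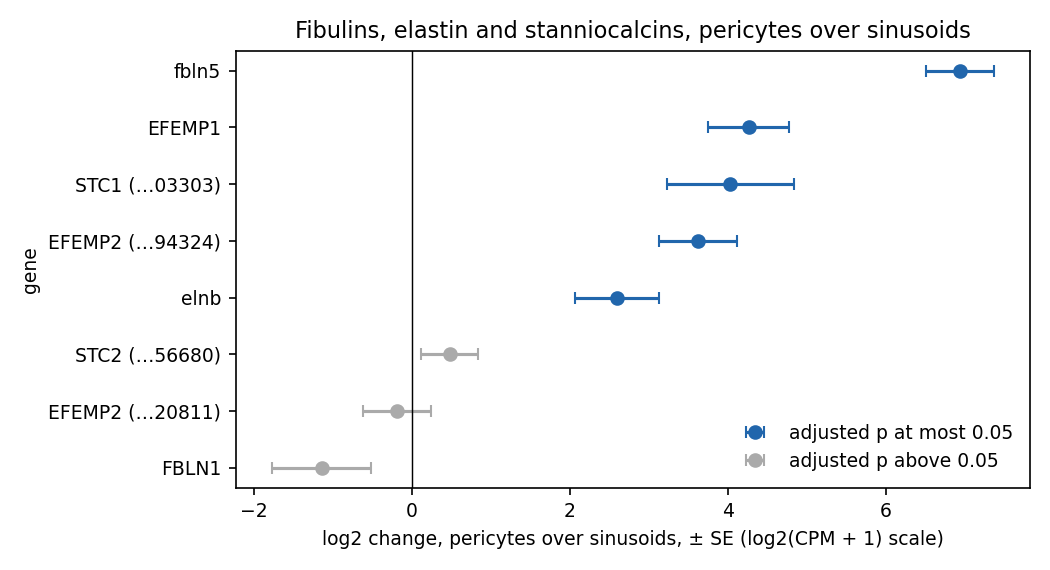
Log2 change of each tested gene in pericytes over sinusoids on the log2(CPM + 1) scale, with the limma standard error (n = 2 libraries each), in blue where the adjusted p was at most 0.05 and in grey where it was above. The 5 called genes run from 2.60 for elnb to 6.93 for fbln5, and STC2, the second EFEMP2 copy and FBLN1 lie between 0.48 and -1.14. EFEMP1, elnb and STC1 (ENSDARG00000003303) reached the filter only through pericytes, where they are high, so their blue marks are a description. STC2 (ENSDARG00000056680) reached it only through ZKS cells.

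Replicates within a group were not alike for all of these genes. In sinusoids replicate 1 was higher for 8 of 10 identifiers and equal, at 0, for 2, and its renal tubule markers summed to 1159 CPM against 1.72 CPM in replicate 2. In pericytes STC1 (ENSDARG00000003303) was at 35.65 CPM in replicate 2 and 6.71 CPM in replicate 1, and elnb at 8.16 and 2.43 CPM. Podocyte markers, all 4 above 0 in both, summed to 472.8 CPM in pericytes replicate 2 and 68.08 CPM in replicate 1, and renal tubule markers to 447.9 and 256 CPM. The part of tubule or podocyte RNA in the STC1 and elnb values was not tested.

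Transcripts with the pattern most like those of the 2 genes high in ZKS cells were sought over the 6 niche libraries, by the Euclidean distance of log2(CPM + 1) values centred on the mean of each gene, among 15916 genes. STC2 (ENSDARG00000056680) was the nearest of all genes to EFEMP2 (ENSDARG00000094324), at a distance of 3.30, and EFEMP2 was the 4th nearest to STC2. Both copies were picked for a high level in ZKS cells, so their closeness is no separate result.

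Other near patterns were PAPPA2, HHATL and ITGA10 for EFEMP2 (distances 4.41, 4.66 and 4.71) and htr1aa, HHATL and ITGA10 for STC2 (distances 2.77, 3.02 and 3.71). ITGA10, an integrin chain that binds collagen in mammals, was at 2821.23 and 2499.72 CPM in ZKS libraries, 5.57 and 15.32 CPM in pericyte libraries and 0.45 and 5.11 CPM in sinusoid libraries. The serotonin receptor gene htr1aa was at 495.31 and 665.74 CPM in ZKS libraries and at 0 in the 4 other niche libraries. All of these patterns are set by 2 high ZKS libraries, and the likeness is a description over 6 libraries.

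Other genes of elastic fibres were then read from a list of 38 symbols outside the fibulins above, of which 32 matched and 28 were tested. ZKS cells had less of several fibre coats and cross-linkers than pericytes. Of the 28, 3 were higher and 11 lower in ZKS cells, beside 15.2% of all genes called higher and 22.0% called lower, and the median log2 change was -0.61 against -0.15 over all genes. The 3 higher ones were not called without ZKS replicate 1 or without ZKS replicate 2, when 0 were higher and 10 lower in each case and FBLN7, 1 of the 3, no longer reached the filter. Of the 28, 4 reached the filter only through pericytes (mfap5, EMILIN2 ENSDARG00000061196, emilin2b and HMCN1), 1 only through ZKS cells (FBLN7) and 1 only through sinusoids (LOXL4 ENSDARG00000105442), so the counts over this list are a description. With CPM as deposited, which moved the median of all genes to 0.098, the counts were 6 higher and 11 lower, and 51.2% of all calls were higher against 40.8% after TMM.

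The gene mfap5, of a microfibril protein, was at 0 in both ZKS libraries against 125.17 and 218.77 CPM in pericyte libraries, at least 531-fold lower (log2 change -7.52 ± 0.52). EMILIN2 (ENSDARG00000061196), an elastin-associated glycoprotein, was at 0.22 and 0.51 CPM in ZKS libraries against 153.58 and 155.63 CPM in pericyte libraries (-7.03 ± 0.48). Both reached the filter only through pericytes, so their adjusted p are not given. LOXL1, a lysyl oxidase that elastic fibre upkeep needs in mice, was at 0.22 and 0 CPM in ZKS libraries against 159.43 and 101.80 CPM in pericyte libraries (-7.03 ± 0.38, limma, adjusted p = 0.000117). The transglutaminase gene TGM2 (ENSDARG00000074094), which cross-links matrix proteins, was at 0 in both ZKS libraries against 93.63 and 87.19 CPM in pericyte libraries, at least 279-fold lower (limma, adjusted p = 0.000218).

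Against sinusoids the same list went both ways in ZKS cells. Of 28 genes, 9 were higher and 8 lower, beside 13.7% of all genes called higher and 17.9% called lower, with a median of 0.35 against -0.12 over all genes. LOX, the founding lysyl oxidase, was at 261.31 and 253.02 CPM in ZKS libraries against 0.90 and 0.49 CPM in sinusoid libraries (log2 change 7.02 ± 0.29, limma, adjusted p = 4.54e-05). LOXL2 (ENSDARG00000044074), which cross-links basement membrane collagen, was at 708.68 and 584.07 CPM in ZKS libraries against 5.91 and 0.99 CPM in sinusoid libraries (7.21 ± 0.51, limma, adjusted p = 0.000221).

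LOXL1 ran the other way, at 0.22 and 0 CPM in ZKS libraries against 2830.20 and 3691.40 CPM in sinusoid libraries (-11.61 ± 0.38, limma, adjusted p = 3.02e-05). TGM2 (ENSDARG00000074094) was at least 815-fold lower in ZKS cells than in sinusoids, where it was at 192.26 and 335.86 CPM (limma, adjusted p = 9.96e-05). ZKS cells, with their high EFEMP2 level, thus had more LOX and LOXL2 than sinusoids and had LOXL1 near 0. The gene loxl2a, a further LOXL2 gene of the fish, went the other way: it was at 0.11 and 0 CPM in ZKS libraries, 68.65 and 28.35 CPM in pericyte libraries and 13.76 and 9.42 CPM in sinusoid libraries (ZKS cells against pericytes -5.58 ± 0.54, against sinusoids -3.64 ± 0.54, limma, adjusted p = 0.000783 and 0.00345). Against pericytes LOX and LOXL2 (ENSDARG00000044074) did not pass the test (log2 changes 0.77 ± 0.29 and 1.52 ± 0.51, limma, adjusted p = 0.0769 and 0.0566). The number of list genes called in this comparison was 9 without ZKS replicate 1 and 11 without ZKS replicate 2.

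**Figure D3:**
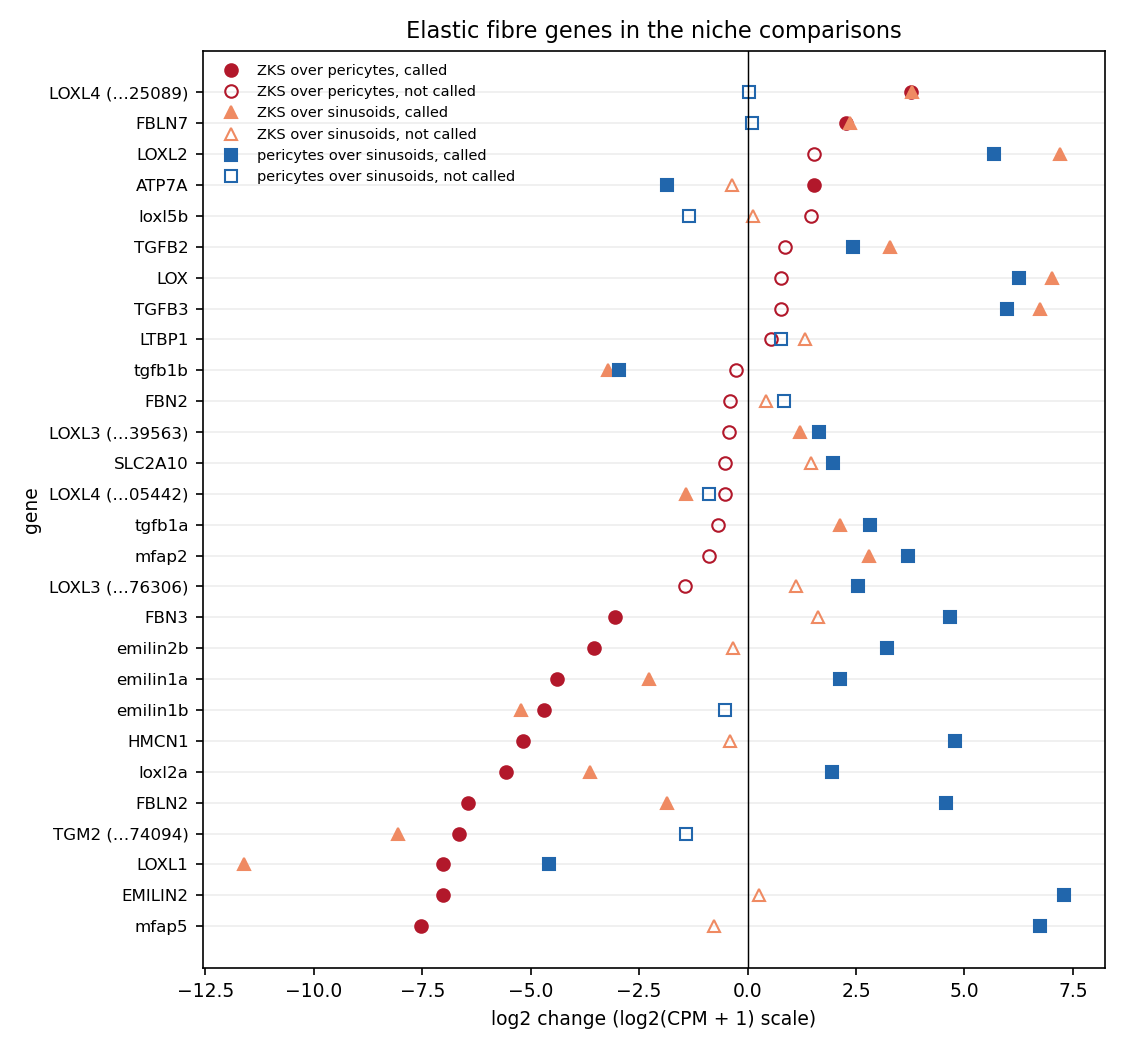
Log2 change (log2(CPM + 1) scale) of the 28 tested elastic fibre genes, 1 row each, ordered by the change in ZKS cells over pericytes, for ZKS over pericytes (circles), ZKS over sinusoids (triangles) and pericytes over sinusoids (squares), filled where the limma adjusted p was at most 0.05. Most squares lie right of 0 (17 filled, beside 14.4% of all genes called higher). The filled circles lie mainly left of it (11 of 14, beside 22.0% of all genes called lower and 15.2% higher). Of the 17 and of the 11, 4 each (mfap5, EMILIN2, emilin2b and HMCN1) reached the filter only through pericytes. FBLN7 reached it only through ZKS cells and LOXL4 (ENSDARG00000105442) only through sinusoids, so the counts are a description.

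Pericytes had more of the elastic fibre list than sinusoids. Of the 28 tested, 17 were higher and 3 lower in pericytes, beside 14.4% and 10.9% of all genes, with a median log2 change of 2.05 against -0.06 over all genes. The 4 genes that reached the filter only through pericytes are all among the 17, so the count is a description and their adjusted p are not given. Of these, EMILIN2 (ENSDARG00000061196) was at 153.58 and 155.63 CPM in pericyte libraries against 0.22 and 0 CPM in sinusoid libraries (7.29 ± 0.48). The gene mfap5 was at 125.17 and 218.77 CPM in pericyte libraries against 0.90 and 0.49 CPM in sinusoid libraries (6.75 ± 0.52). LOX was at 128.46 and 105.38 CPM in pericyte libraries against 0.90 and 0.49 CPM in sinusoid libraries (6.25 ± 0.29, limma, adjusted p = 0.000117). TGFB3, a growth factor held latent by fibre proteins, was at 233.07 and 250.70 CPM in pericyte libraries against 1.65 and 5.05 CPM in sinusoid libraries (5.98 ± 0.49, limma, adjusted p = 0.000603). Its level was highest in ZKS libraries, at 576.19 and 480.33 CPM. The difference of ZKS cells from pericytes did not pass the test (0.76 ± 0.49, limma, adjusted p = 0.265).

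The 3 genes lower in pericytes were LOXL1, the copper transporter gene ATP7A and the growth factor gene tgfb1b, named here after their values were seen. LOXL1 changed by -4.59 ± 0.38, tgfb1b by -2.96 ± 0.60 and ATP7A by -1.87 ± 0.35. The call of tgfb1b was lost without pericytes replicate 2 and without sinusoids replicate 2 (limma, adjusted p = 0.0827 and 0.0556). FBLN2, a further fibulin and likewise singled out after its values were seen, was at 697.23 and 522.59 CPM in pericyte libraries against 25.65 and 25.30 CPM in sinusoid libraries (4.58 ± 0.34, limma, adjusted p = 0.000418), and at 6.37 and 9.31 CPM in ZKS libraries. Without pericytes replicate 2 the list had 11 calls between pericytes and sinusoids in place of 20, and edgeR made 13.

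The second list held 22 symbols tied to stanniocalcin action: pappalysins, insulin-like growth factors with their binding proteins and receptors, calcium and phosphate handling, and HMOX1. Of these 21 matched and 14 of 20 identifiers were tested. Compared with pericytes, ZKS cells had more of the pappalysin PAPPA2 and less of the growth factor genes igf2a, igf2b and IGF1 and of IGFBP5. In all 1 was higher and 6 were lower, beside the 15.2% and 22.0% of all genes, with a median log2 change of -1.27. The count was 4 without ZKS replicate 1. IGF1 (log2 change -2.05 ± 0.43) reached the filter only through pericytes, so its adjusted p is not given. Its call was lost without ZKS replicate 1 and without ZKS replicate 2. PAPPA (ENSDARG00000059858) reached the filter only through ZKS cells, so the counts over this list are a description.

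PAPPA2 (ENSDARG00000076020), which cuts binding proteins such as IGFBP5 in mammals, was at 1295.34 and 1232.40 CPM in ZKS libraries against 29.12 and 12.89 CPM in pericyte libraries (5.59 ± 0.44, limma, adjusted p = 0.000361). IGFBP5 (ENSDARG00000025348) was at 32.93 and 26.31 CPM in ZKS libraries against 787.72 and 1040.59 CPM in pericyte libraries (-5.25 ± 0.40, limma, adjusted p = 0.000335). The growth factor gene igf2a was at 0.43 and 0 CPM in ZKS libraries against 170.56 and 78.89 CPM in pericyte libraries (-6.79 ± 0.49, limma, adjusted p = 0.000273). HMOX1, the haem-degrading enzyme, was at 15.66 and 22.47 CPM in ZKS libraries against 314.43 and 137.02 CPM in pericyte libraries (-3.75 ± 0.76, limma, adjusted p = 0.0102), a call lost without ZKS replicate 1 and without pericytes replicate 1 (limma, adjusted p = 0.0574 and 0.0665).

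ZKS cells thus had more STC2 and PAPPA2, in mammals an inhibitor and a protease it binds, than pericytes and less IGFBP5 and igf2a. Against sinusoids 2 of the 14 were higher in ZKS cells and 3 lower, beside the 13.7% and 17.9% of all genes. The higher ones were PAPPA2, at 0.52 and 0 CPM in sinusoid libraries (9.81 ± 0.44, limma, adjusted p = 5.42e-05), and IGFBP5. IGFBP5 (ENSDARG00000025348) was thus between the other groups in ZKS cells, at 32.93 and 26.31 CPM in ZKS libraries against 4.49 and 1.23 CPM in sinusoid libraries (2.88 ± 0.40, limma, adjusted p = 0.0027). HMOX1 was at 15.66 and 22.47 CPM in ZKS libraries against 1899.54 and 6978.97 CPM in sinusoid libraries (-7.81 ± 0.76, limma, adjusted p = 0.000676). The growth factor genes igf2b and igf2a changed by -3.90 ± 0.33 and -3.65 ± 0.49.

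**Figure D4:**
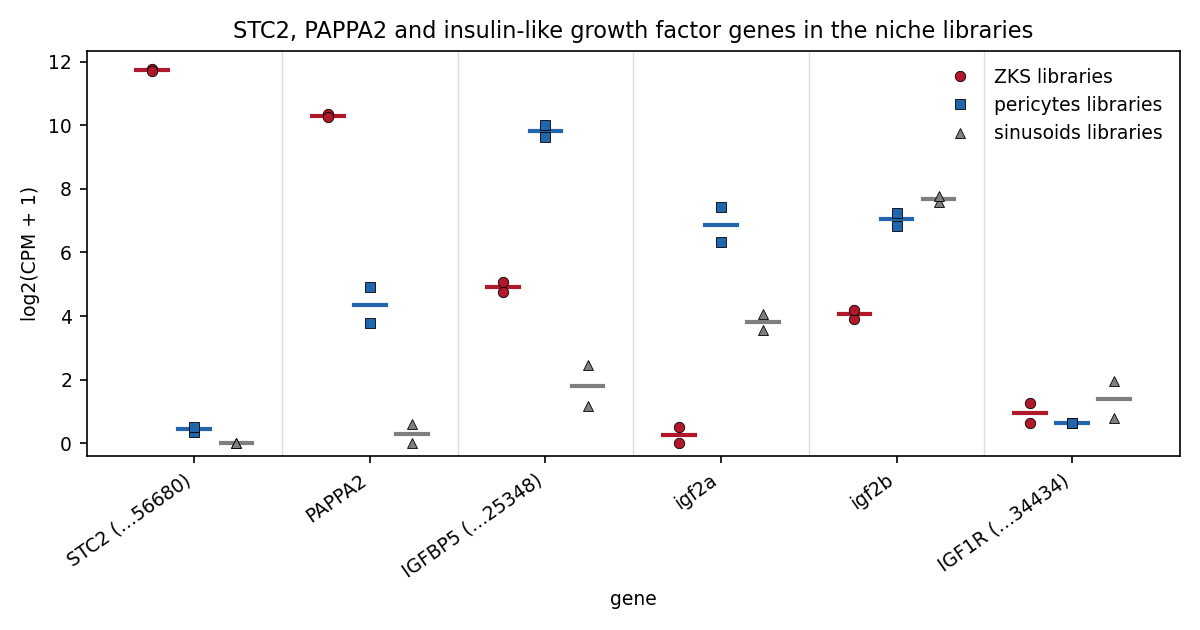
Level of STC2 (ENSDARG00000056680), PAPPA2 and genes of insulin-like growth factors in the 6 niche libraries as log2(CPM + 1), with points for single libraries (ZKS, pericytes, sinusoids, from left to right within each gene) and bars for means. STC2 and PAPPA2 are highest in ZKS cells, IGFBP5 and igf2a in pericytes and igf2b lowest in ZKS cells, while IGF1R (ENSDARG00000034434) is below 3 CPM in all 6 libraries.

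Between pericytes and sinusoids 4 of the 14 genes were higher in pericytes and 1 was lower, beside the 14.4% and 10.9% of all genes, with a median log2 change of 0.79. IGF1 is among the 4 and reached the filter only through pericytes, so this count is a description. IGFBP5 changed by 8.13 ± 0.40 (limma, adjusted p = 0.000146), PAPPA2 by 4.21 ± 0.44 (limma, adjusted p = 0.00146) and igf2a by 3.14 ± 0.49 (limma, adjusted p = 0.00575). The calls of PAPPA2 (edgeR, adjusted p = 0.0506) and IGF1 were lost in edgeR on recovered reads. HMOX1 changed by -4.06 ± 0.76 (limma, adjusted p = 0.0109; 0.0791 without pericytes replicate 2). Without pericytes replicate 2 the number called was 3, as it was in edgeR. The calcium-sensing receptor gene CASR, through which calcium governs stanniocalcin release in fish, was at 0 in both ZKS and both sinusoid libraries and at 0.29 and 0.86 CPM in pericyte libraries.

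In DP cells these genes were almost absent from the tables, also after co-culture with the ZKS cells that had so much EFEMP2 and STC2. Both EFEMP2 (ENSDARG00000094324) and STC2 (ENSDARG00000056680) were listed at 0 in all 6 DP libraries, co-cultures included. EFEMP1, fbln5 and the second copies of STC1 and STC2 were listed at 0 in all 6 as well. In all, 6 of the 60 values were above 0. Their depth is unknown and a 0 can be a failed estimate, so no upper limit is given. Of the genes named above for a pattern like that of EFEMP2 or STC2, HHATL was listed at 0.2 CPM in co-cultured DP replicate 1 and at 0 in the other 5 DP libraries, and PAPPA2, ITGA10 and htr1aa at 0 in all 6.

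The values above 0 were scattered over single libraries. STC1 (ENSDARG00000003303) was listed at 0 in the treated and the co-cultured DP libraries, against 0 and 44.4 CPM in uncultured DP libraries. FBLN1 was listed at 0 in both treated libraries, at 0 and 29.6 CPM in co-cultured libraries and at 0.3 and 0.1 CPM in uncultured libraries. The gene elnb was listed at 4.4 CPM in treated replicate 2 alone, and EFEMP2 (ENSDARG00000020811) at 0.8 CPM in co-cultured replicate 1 alone. In none of these did both libraries of a group hold a value above 0.3 CPM.

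None of the 10 identifiers reached the filter of 1 CPM in 2 DP libraries, so none was tested there. Of the 8795 genes tested in DP cells, limma called 0 (0.0%) in each of the 3 comparisons. At an unadjusted p under 0.05 it counted 844 between treated and co-cultured cells, 1183 between treated and uncultured cells and 996 between co-cultured and uncultured cells. Of the elastic fibre list 8 genes and of the stanniocalcin list 3 genes were among those tested.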

How the data were processed

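The authors deposited 1 table per library with CPM for 32047 identifiers, to 2 decimals in niche and 1 decimal in DP libraries. HISAT2 2.1.0, Subread 1.6.4 and build GRCz11 are named in the submitters' processing notes, which give no settings here. No molecular identifiers are described per the labels' protocols, so PCR copies are not independent molecules and all intervals and floors cover counting error only. Niche CPM values were whole multiples of the value of 1 read (99.82% to 100% within 0.1 read), which gave reads and depth; the step of ZKS replicate 2 lay too near 0.1 CPM for a check on low values alone. Of recovered counts 54.25% to 61.04% were even, which was not explained.

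CPM were scaled by TMM factors (edgeR 4.0.16), taken as log2(CPM + 1) and tested in limma 3.58.1 under R 4.3.3 with a trended prior, a scale that understates changes of low genes. Genes needed 1 CPM in 2 libraries of a set (15916 niche, 8795 DP); 3 groups of 2 shared a fit (3 residual degrees of freedom), and two-sided p-values were adjusted by Benjamini-Hochberg over all genes tested, threshold 0.05. The step was tested on simulated data. Folds are ratios of mean CPM, or bounds against the higher floor of 3 reads per library where a group was at 0. Alternatives, with DESeq2 1.42.0 among them, are given at the end.

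The genes, lists and alternatives were chosen with earlier results of these data known. Named were all 10 identifiers, the 5 nearest patterns of 2 of them (1 gene among these is not reported here), and from each list up to 4 called genes with the largest change per comparison; others are marked as chosen after their values were seen. Gene symbols came from the name table; transcript lengths were not used here, so levels are not ranked between genes. No coordinates are given because the annotation at hand is of another build.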

Additional observations from a re-analysis of the deposited data

How the results depend on the processing

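Of the values for single genes between pericytes and sinusoids under the alternatives, 110 kept their direction and side of the threshold, 5 lost the call, 1 gained it and 1 changed sign: EFEMP2 (ENSDARG00000020811), uncalled throughout, was at 0.18 without pericytes replicate 1 and -0.57 without pericytes replicate 2, its range with 1 library left out, in place of -0.19. Between these cells 5 of the genes were called, with 3 under a filter of 10 CPM, 3 in edgeR, 4 with all 12 libraries in one fit, 5 in DESeq2, and 3 to 5 with 1 library left out. Among all genes 4036 were called, with 2335 from only the 4 libraries compared, 1247 in edgeR, 2972 in DESeq2 and 1981 (without pericytes replicate 2) to 3847 with 1 library left out, the count being more than 1.5 times lower without any library but sinusoids replicate 1 (fits without a replicate assume that the lone library varies like the other groups). Elastic fibre calls were 17 in ZKS cells against sinusoids, with 9 in one fit of all 12 libraries and 9 to 18 with 1 library left out, and 20 in pericytes against sinusoids, with 13 in edgeR and 11 to 19 with 1 left out. Stanniocalcin list calls were 7 in ZKS cells against pericytes (4 to 7 with 1 left out) and 5 in pericytes against sinusoids (3 in edgeR, 3 to 5 with 1 left out). In DP cells one fit of all 12 libraries called 495 genes in treated against co-cultured, 793 in treated against uncultured and 609 in co-cultured against uncultured cells, where the DP fit called 0. The cause of these shifts was not tested. A pseudocount of 0.1 or 5 moved the size of most log2 differences of ZKS cells, for STC2 (ENSDARG00000056680) against pericytes 12.54 and 9.08 in place of 11.03.

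Replicate numbers recur in every group, but nothing ties a number to 1 fish or day, and same-numbered libraries deviated together by correlations of only -0.00558 to 0.0637 (niche) and -0.00961 to 0.00116 (DP). With the replicate block 5 of the genes and 3813 of all genes were called between pericytes and sinusoids, elastic fibre calls were 14, 16 and 20 and stanniocalcin list calls 7, 5 and 5 (ZKS cells against pericytes, ZKS cells against sinusoids, pericytes against sinusoids), and DP calls 0. Count tests on recovered reads were not run for ZKS cells, whose replicate 2 had no certain step, or for DP cells, which have none. In sinusoids, depth limits EFEMP2 (ENSDARG00000094324) and STC1 (ENSDARG00000003303), which rest on 44 and 4 reads.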

Other observations

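Further genes of the elastic fibre list had their highest level in ZKS cells and were singled out after their values were seen. LOXL4 (ENSDARG00000025089), a lysyl oxidase relative, was at 115.0 and 86.94 CPM in ZKS libraries, 9.56 and 2.29 CPM in pericyte libraries and 1.79 and 11.27 CPM in sinusoid libraries. Its log2 changes were 3.77 ± 0.90 against pericytes and 3.8 ± 0.90 against sinusoids (limma, adjusted p = 0.0183 and 0.0194). Neither call held with 1 ZKS library: without ZKS replicate 1 the adjusted p was 0.0985 against pericytes and 0.101 against sinusoids, and without ZKS replicate 2 it was 0.0806 and 0.0824 (limma). The call against pericytes was also lost without pericytes replicate 2 (limma, adjusted p = 0.0982). Its second copy (ENSDARG00000105442) was below 3 CPM in all 6 niche libraries. FBLN7, a short fibulin, was low throughout, at 4.43 and 6.27 CPM in ZKS libraries, 0.29 and 0 CPM in pericyte libraries and 0 and 0.12 CPM in sinusoid libraries (log2 changes 2.27 ± 0.40 against pericytes and 2.37 ± 0.40 against sinusoids). FBLN7 reached the filter only through its ZKS libraries, so no test is given, and without either of them it was not tested.

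In DP cells LOXL2 (ENSDARG00000044074) differed more between replicates than between groups. It was listed at 57.2 and 0.1 CPM in treated DP libraries, 116.5 and 2.5 CPM in co-cultured DP libraries and 54.4 and 0.8 CPM in uncultured DP libraries, with replicate 1 the higher in each group. The phosphate transporter gene slc34a2b was listed at 284.3 and 0 CPM in treated, 30.9 and 0 CPM in co-cultured and 0 and 139.5 CPM in uncultured DP libraries.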
